A study of Homo sapiens with 8 samples.

Results

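The lysyl oxidases are copper-dependent amine oxidases that fibroblasts and other connective tissue cells secrete. They oxidise lysine side chains in collagen and elastin, and the aldehydes so formed join neighbouring chains into covalent cross-links that make the matrix stiff and insoluble. LOX and LOXL1 are made as precursors with a propeptide, which BMP1 and related proteases remove, whereas LOXL2, LOXL3 and LOXL4 carry scavenger receptor cysteine-rich domains in its place. The family was taken as the 5 human genes LOX, LOXL1, LOXL2, LOXL3 and LOXL4, matched by symbol. Each had 1 entry among the 23248 gene symbols of the deposited tables, and all 5 were among the 11442 genes tested, which had a mean of at least 1 FPKM.

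PolyA-selected RNA was sequenced from 8 samples of human fibroblasts, kept in DMEM with 10% fetal bovine serum and transfected by Lipofectamine RNAiMax with an siRNA that targets SUPT4H1 or a control siRNA without a target. SUPT4H1 encodes SPT4, the partner of SPT5 in the elongation factor DSIF. The groups were SUPT4H1 siRNA in line 1, control siRNA in line 1, SUPT4H1 siRNA in line 2 and control siRNA in line 2, with 2 samples each. Both fibroblast lines are given in the labels as population controls, and no genetic change was introduced into either. Only 2 lines were studied, and the labels do not say that the replicate samples were grown as separate cultures, so the p-values reflect only how these samples vary, and that variation may be technical. Levels are given as FPKM, fragments scaled by the length of the transcript and by the fragments mapped in the sample, and are therefore per length. The tables hold no fragment counts, so sequencing depth is unknown; the FPKM of a sample added up to 288293 to 305680, with 11299 to 11418 genes at 1 FPKM or more.

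SUPT4H1 itself stood at 1.37 and 1.43 FPKM in line 1 with its siRNA, against 25.6 and 25.6 FPKM with the control siRNA. In line 2 it stood at 1.69 and 1.74 FPKM with its siRNA, against 26.2 and 28.3 FPKM with the control siRNA. The remaining SUPT4H1 level was 5.46% of control in line 1 and 6.30% in line 2, so each library matched its siRNA label. These levels do not check the line labels. All 10 fibroblast markers had a mean of at least 1 FPKM, although COL1A1 and COL1A2 were listed at 0 in all 4 control samples with a status of too many fragments. None of 5 endothelial and none of 4 melanocyte markers reached that level, while 1 of 6 keratinocyte markers did, KRT10. Of 4 leukocyte markers CD68 and CD14 did, and the summed level of the 4 was 59.4 to 78.1 FPKM with the SUPT4H1 siRNA, against 45.1 to 51.9 FPKM with the control siRNA; the defining markers PTPRC and CD3E were at 0.133 and 0 FPKM on average. Of 5 smooth muscle markers LMOD1 and CNN1 did, and the summed level was 6.48 to 25.9 FPKM with the SUPT4H1 siRNA, against 6.37 to 19.0 FPKM with the control siRNA, with MYH11 at 0.0194 FPKM on average. The part of these lists in the results below was not tested.

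The promoters of 4 members are shown, those that the RefSeq set held, and LOXL2 was not among them. Any link between these sequences and the responses to the SUPT4H1 siRNA was not tested. Each sequence is 300 bases from RefSeq on GRCh38.p14, 250 before and 50 after the most upstream start listed, read along the gene's strand. LOX lies at chr5:122078210-122078509 on the minus strand, LOXL1 at chr15:73926212-73926511 on the plus strand, LOXL3 at chr2:74553893-74554192 on the minus strand and LOXL4 at chr10:98268145-98268444 on the minus strand. Capitals mark GGGCGG, the GC box bound by SP1-type factors, or ACGTG, the core of the hypoxia response element, on either strand.
LOX: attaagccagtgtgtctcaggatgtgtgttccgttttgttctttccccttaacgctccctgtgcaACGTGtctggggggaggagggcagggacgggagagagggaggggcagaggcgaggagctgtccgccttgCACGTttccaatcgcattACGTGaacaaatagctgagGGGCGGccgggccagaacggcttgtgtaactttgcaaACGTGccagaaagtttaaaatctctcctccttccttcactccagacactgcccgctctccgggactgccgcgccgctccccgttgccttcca
LOXL1: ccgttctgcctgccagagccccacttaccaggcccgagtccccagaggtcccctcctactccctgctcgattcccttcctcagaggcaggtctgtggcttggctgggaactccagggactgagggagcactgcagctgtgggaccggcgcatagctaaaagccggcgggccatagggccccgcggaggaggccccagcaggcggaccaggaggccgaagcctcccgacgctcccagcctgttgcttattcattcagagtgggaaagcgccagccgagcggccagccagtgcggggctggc
LOXL3: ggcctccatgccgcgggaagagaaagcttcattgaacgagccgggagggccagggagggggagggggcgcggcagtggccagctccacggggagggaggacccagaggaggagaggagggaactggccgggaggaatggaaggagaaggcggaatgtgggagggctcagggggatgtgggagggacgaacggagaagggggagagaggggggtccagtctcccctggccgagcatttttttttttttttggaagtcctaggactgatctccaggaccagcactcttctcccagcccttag
LOXL4: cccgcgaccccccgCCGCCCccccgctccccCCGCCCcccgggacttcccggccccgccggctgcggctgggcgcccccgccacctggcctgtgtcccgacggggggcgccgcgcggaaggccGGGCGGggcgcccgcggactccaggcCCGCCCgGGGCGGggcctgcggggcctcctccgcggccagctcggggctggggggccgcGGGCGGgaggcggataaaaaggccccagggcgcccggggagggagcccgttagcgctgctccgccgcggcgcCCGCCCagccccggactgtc

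The LOX window held ACGTG at -185, -116, -98 and -42 from the start and GGGCGG at -79. The LOXL4 window held GGGCGG at -236, -219, -127, -101, -94, -42 and +31, and no ACGTG. The LOXL1 and LOXL3 windows held neither, and none of the 4 windows held TATAAA, the TATA box, or TGANTCA, the AP-1 site, which were searched in the same way on both strands. No matches overlapped. Among 27305 RefSeq promoters of the same length, 44.5% held GGGCGG, 21.6% ACGTG, 12% TATAAA and 7.72% TGANTCA. The LOXL4 window was 85.3% G and C, higher than 99.8% of promoters, with 45 CpG dinucleotides. The windows of LOX, LOXL1 and LOXL3 were 58%, 67.3% and 63% G and C, against a median of 58.3% over all promoters. These are matches of letters only, and binding of a factor was not measured.

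With the SUPT4H1 siRNA, 3 of the 5 family mRNAs fell over both lines and none rose: LOXL3, LOXL1 and LOXL2. LOX and LOXL4 did not pass the test over both lines. Among all genes tested, 15.2% were called lower and 26.8% higher in the same fit. In these bulk samples, fewer cells of a type and less RNA per cell cannot be told apart.

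LOX is the founding member and the main cross-linking enzyme of fibrillar collagen. In line 1 it stood at 191 and 185 FPKM with the SUPT4H1 siRNA, against 224 and 223 FPKM with the control siRNA. In line 2 it stood at 522 and 523 FPKM with the SUPT4H1 siRNA, against 509 and 538 FPKM with the control siRNA. Both SUPT4H1 samples of line 1 lay below both controls, whereas in line 2 the 2 SUPT4H1 samples lay between the 2 controls. Here and for the members below, such order among 2 samples a group is a description only. The share of all genes with the same order is not given here. The mean was 84.1% of control in line 1 and 99.7% in line 2. Over both lines the log2 change was -0.13 with a standard error of 0.0491 (95% interval -0.24 to -0.015), which did not pass after adjustment over all genes (limma, adjusted p = 0.0653). Without control replicate 1 of line 2 it passed, at -0.17 (limma, adjusted p = 0.0219), and over all 8 fits that left out 1 sample the adjusted p ranged from 0.0219 to 0.170.

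LOXL1 acts mainly on elastin, and its loss in mice leaves elastic fibres poorly renewed. It stood at 81.5 and 82.2 FPKM in line 1 with the SUPT4H1 siRNA, against 107 and 108 FPKM with the control siRNA. LOXL1 in line 2 stood at 149 and 154 FPKM with the SUPT4H1 siRNA, against 200.3 and 209.8 FPKM with the control siRNA. The groups did not overlap in either line, and the mean was 75.9% of control in line 1 and 73.9% in line 2. LOXL1 fell by 0.41 on the log2 scale with a standard error of 0.0256 (limma, adjusted p = 7.75e-06), lower in 2 of 2 lines.

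LOXL2 cross-links collagen, including the collagen IV of basement membranes. It stood at 70.3 and 71.7 FPKM in line 1 with the SUPT4H1 siRNA, against 74.8 and 78.5 FPKM with the control siRNA. LOXL2 in line 2 stood at 175 and 170.5 FPKM with the SUPT4H1 siRNA, against 242 and 241 FPKM with the control siRNA. The groups did not overlap in either line, but the gap was narrow in line 1 and wide in line 2, with means at 92.6% and 71.4% of control. Over both lines LOXL2 fell by 0.30 on the log2 scale with a standard error of 0.0667 (limma, adjusted p = 0.00676).

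LOXL3, which oxidises collagen and elastin and is needed for palate and spine formation in mice, was the least abundant member. It stood at 6.86 and 7.42 FPKM in line 1 with the SUPT4H1 siRNA, against 10.4 and 11.4 FPKM with the control siRNA. LOXL3 in line 2 stood at 15.4 and 16.1 FPKM with the SUPT4H1 siRNA, against 22.5 and 24.6 FPKM with the control siRNA. The groups did not overlap in either line, and the mean was 65.6% of control in line 1 and 66.7% in line 2. LOXL3 fell by 0.55 on the log2 scale with a standard error of 0.0408 (limma, adjusted p = 1.85e-05), the lowest log2 change of the family, and 112 of all genes tested had a lower one.

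LOXL4, a matrix amine oxidase of the LOXL2 type, stood at 162 and 155 FPKM in line 1 with the SUPT4H1 siRNA, against 161 and 166 FPKM with the control siRNA. LOXL4 in line 2 stood at 169 and 172 FPKM with the SUPT4H1 siRNA, against 179 and 173 FPKM with the control siRNA. The groups overlapped in line 1, and in line 2 both SUPT4H1 samples lay just below both controls. The log2 change over both lines was -0.046, with a 95% interval of -0.10 to 0.012 (limma, adjusted p = 0.182). The intervals that the authors deposited beside each FPKM value were narrow for all members, with half-widths of 1.16% to 1.43% of the value for LOXL4, 4.13% to 4.22% for LOX, 4.24% to 4.62% for LOXL2, at most 5.0% for LOXL1, and 4.66% to 7.45% for LOXL3.

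**Figure D1:**
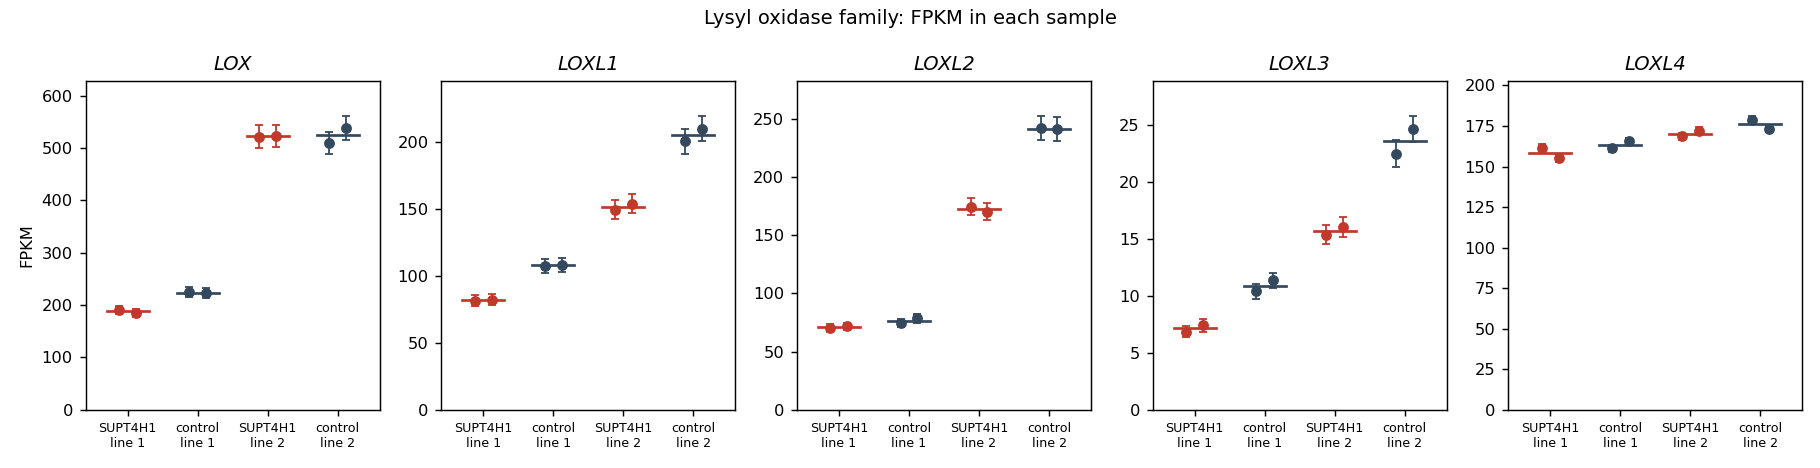
FPKM of each lysyl oxidase gene in the 8 samples, 1 panel per gene, each with its own axis. Points are samples and horizontal bars are the means of 2 samples for SUPT4H1 siRNA and control siRNA in each line. Vertical bars are the intervals deposited with each FPKM value, not the spread between replicates. LOXL1, LOXL2 and LOXL3 have both SUPT4H1 samples below both controls in each line, LOX only in line 1 and LOXL4 only in line 2. With 2 samples a group this order is a description, and its share over all genes is not given.

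The 3 calls rest on the line as a block. In a fit without it, which groups the samples by siRNA alone, the difference between the lines enters the error and none of the 5 members passed (limma, adjusted p = 0.484 to 0.934), with 1.78% of all genes called lower and 3.56% higher. With the samples scaled by the median of their gene ratios in place of the deposited scale, all 5 members were called lower, LOX at -0.16 (limma, adjusted p = 0.0203) and LOXL4 at -0.081 (limma, adjusted p = 0.0382). Over all genes, that scaling gave 2319 calls higher and 2310 lower, where the deposited scale gave 3072 higher and 1743 lower. Median-ratio scaling sets the median change near 0, so the near-even split follows largely from it and favours neither scale.

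Tested line by line, 3 of 5 members fell in line 2, where 15.9% of all genes were called lower and 27% higher, and 4 of 5 in line 1, where 11.7% were called lower and 19% higher. The log2 change of LOX was -0.0032 in line 2 (limma, adjusted p = 0.945), and in line 1 it fell by 0.25 (limma, adjusted p = 3.90e-04). The difference itself, line 2 response minus line 1 response, was 0.25 for LOX, with a 95% interval of 0.14 to 0.35 (limma, adjusted p = 0.00948), and this call was lost without a filter on low FPKM (limma, adjusted p = 0.0512). LOXL2 went the other way. It fell by 0.48 in line 2 (limma, adjusted p = 2.50e-06) and by 0.11 in line 1 (limma, adjusted p = 0.0237), a difference of -0.37 with an interval of -0.47 to -0.28 (limma, adjusted p = 7.67e-04). The LOXL2 call in line 1 was lost without control replicate 2 (adjusted p = 0.191), SUPT4H1 replicate 1 (adjusted p = 0.118) or SUPT4H1 replicate 2 (adjusted p = 0.0545) of that line, by limma in each case. The difference of the responses passed for 9.88% of all genes, 5.39% with the higher response in line 2 and 4.49% with the lower.

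The other members showed no difference between the lines past the threshold. LOXL1 fell by 0.43 in line 2 and 0.39 in line 1, a difference of -0.040 with an interval of -0.14 to 0.056 (limma, adjusted p = 0.626). LOXL3 fell by 0.55 in line 2 and 0.54 in line 1, a difference of -0.0097 with an interval of -0.19 to 0.17 (limma, adjusted p = 0.958). LOXL4 had log2 changes of -0.047 in line 2 and -0.044 in line 1, a difference of -0.0026 with an interval of -0.10 to 0.096 (limma, adjusted p = 0.980).

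**Figure D2:**
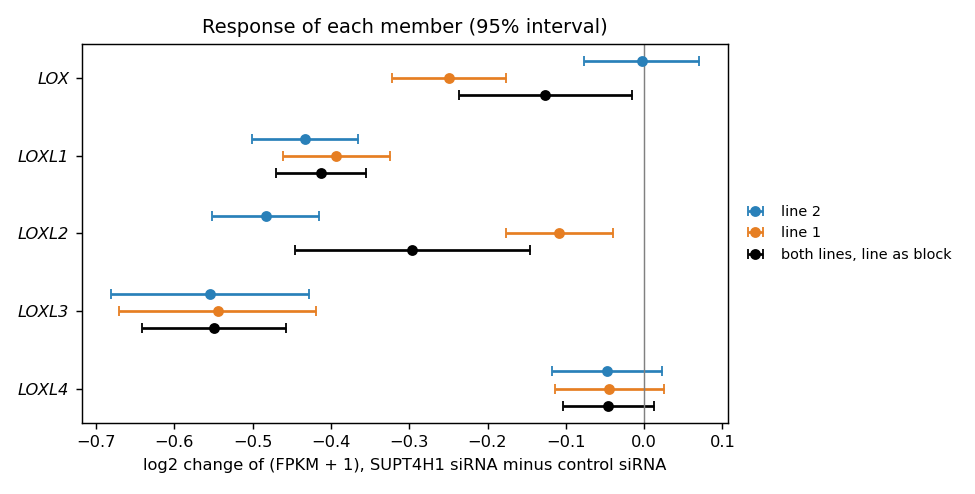
Log2 change of each member, SUPT4H1 siRNA minus control siRNA on log2(FPKM + 1), for both lines together and for each line, with 95% intervals from limma. The changes of LOX and LOXL2 differ between the lines, by 0.25 and -0.37, while those of LOXL1, LOXL3 and LOXL4 have overlapping intervals.

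**Figure D3:**
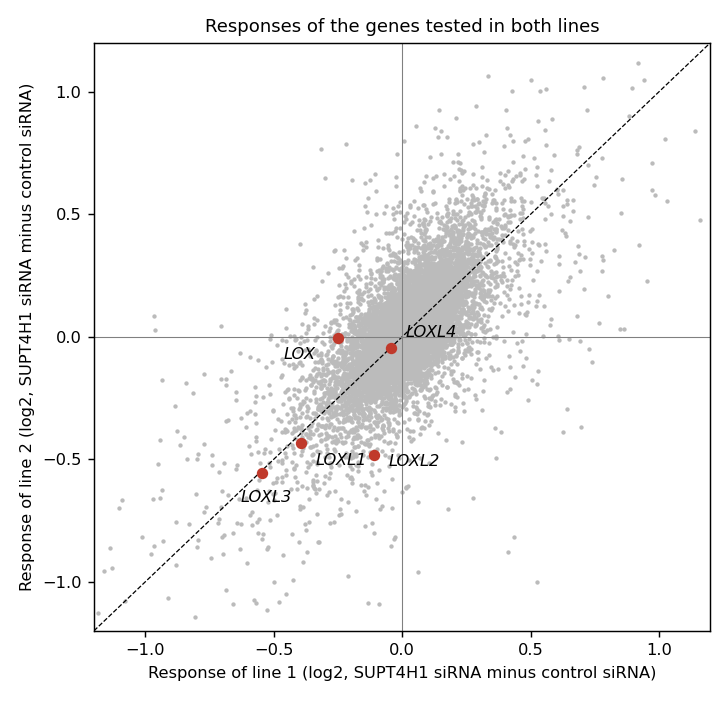
Log2 change in line 2 against log2 change in line 1, SUPT4H1 siRNA minus control siRNA, for the 11442 genes tested (grey) and the 5 members (red); the dashed line marks equal change. Axes stop at 1.2, which leaves 26 genes, SUPT4H1 among them, out of view; LOXL1 and LOXL3 lie on or near the dashed line, LOX above it and LOXL2 below it.

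For each of the 5 members, the log2 difference in level between the lines was larger in size than that between the siRNAs. Over all genes tested, the median absolute log2 difference was likewise larger between the lines, 0.155, than between the siRNAs, 0.0906. All 5 members were higher in line 2, where 27.8% of all genes were called higher than in line 1 and 38% lower. With the SUPT4H1 siRNA the mean of line 2 was 2.78 times that of line 1 for LOX, 1.85 for LOXL1, 2.43 for LOXL2, 2.20 for LOXL3 and 1.07 for LOXL4. With the control siRNA the ratios were 2.34, 1.90, 3.15, 2.17 and 1.08 in the same order. On the log2 scale, adjusted for siRNA, line 2 exceeded line 1 by 1.46 for LOXL2, 1.35 for LOX, 1.04 for LOXL3, 0.90 for LOXL1 and 0.10 for LOXL4 (limma, adjusted p between 4.27e-09 and 0.0055). Of the 5 members, LOXL4 had the smallest log2 difference between the lines as well as between the siRNAs.

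LOX mRNA was the most abundant of the family per length in all 4 groups, and LOXL3 the least. In line 1 the order was LOX, LOXL4, LOXL1, LOXL2 and LOXL3 with either siRNA, and no neighbours in that order overlapped. In line 2 with the SUPT4H1 siRNA it was LOX, LOXL2, LOXL4, LOXL1 and LOXL3, where LOXL2 and LOXL4 overlapped, and with the control siRNA it was LOX, LOXL2, LOXL1, LOXL4 and LOXL3, with no overlap. LOX made up 37.1% of the summed FPKM of the family in line 1 with the SUPT4H1 siRNA, against 38.4% with the control siRNA. In line 2 it made up 50.6% with the SUPT4H1 siRNA, against 44.8% with the control siRNA. The summed level was 506.5 ± 6.97 FPKM with the SUPT4H1 siRNA, against 582 ± 6.31 FPKM with the control siRNA, in line 1 (SD, n = 2 each). In line 2 it was 1033 ± 3.86 FPKM with the SUPT4H1 siRNA, against 1170.2 ± 24.3 FPKM with the control siRNA (SD, n = 2 each), so that 87.0% of the control sum was left in line 1 and 88.3% in line 2.

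**Figure D4:**
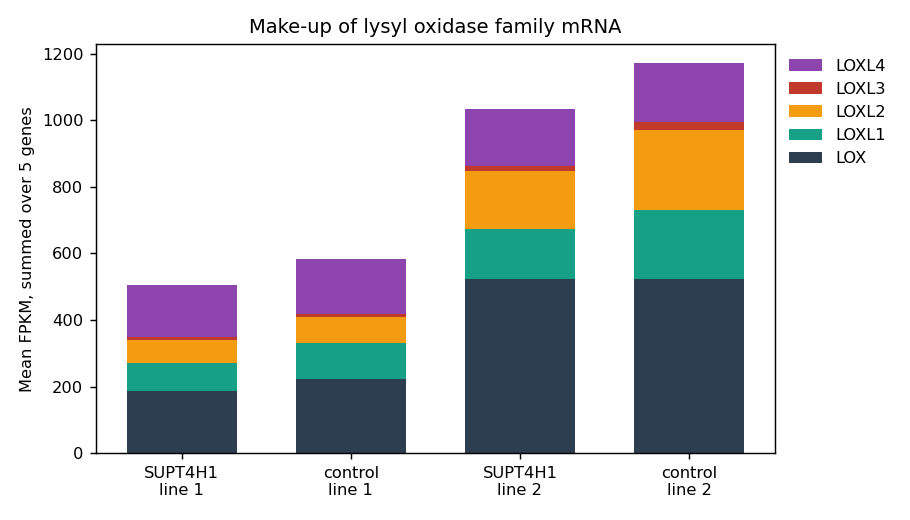
Mean FPKM of the 5 members stacked for each siRNA and line (mean of 2 samples). The stack is lower with the SUPT4H1 siRNA than with the control siRNA in both lines, at 506.5 against 582 FPKM in line 1 and 1033 against 1170.2 FPKM in line 2, with LOX as the largest piece of each.

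The members also differed in which genes they resembled over the 8 samples, measured as Pearson's r on log2(FPKM + 1) among the genes tested. The samples share 2 lines and 2 siRNAs, so these values follow the group means and are a description. LOXL1 and LOXL3 were the most alike of the members, at r = 0.9965, and both had ACTG1 among their 3 most similar genes, at 0.9982 for LOXL1 and 0.9969 for LOXL3. LOXL1 was followed by ALDOA at 0.9975 and PXDN at 0.9973, and LOXL3 resembled PGRMC2 most, at 0.9977, with TPI1 at 0.9969. LOX resembled PSG5 most, at 0.9987, with ITGA1 at 0.9983 and TRNP1 at 0.9973. LOXL2 resembled WFDC1 at 0.998, NDUFA4L2 at 0.9972 and PTGDS at 0.996. WFDC1 was near the floor in line 1, at 0.0959 and 0.134 FPKM with the SUPT4H1 siRNA, against 0.258 and 0.305 FPKM with the control siRNA. LOXL4, with the smallest changes, had its 3 most similar genes at lower values, AP4M1 at 0.981, TMEM131 at 0.9784 and ATP11A at 0.9762.

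On hg19, the build of the files, LOX lies at chr5:121398890-121414055, LOXL1 at chr15:74218789-74244478, LOXL2 at chr8:23154410-23261722, LOXL3 at chr2:74759386-74781091 and LOXL4 at chr10:100007443-100028007. The files list 2 start sites each for LOX and LOXL3 and 1 for each of the others. Of these loci 3 overlap other genes, and since the sources used here do not say that counting used strand, reads in the shared bases cannot be assigned with certainty. LOXL1 shares 1801 bases with LOXL1-AS1, whose log2 change over both lines was 0.078 (limma, adjusted p = 0.0990). LOXL3 shares 4945 bases with DOK1, an adaptor of tyrosine kinase signalling, with a log2 change of 0.061 (limma, adjusted p = 0.141), and 1298 with HTRA2, a mitochondrial protease, with 0.047 (limma, adjusted p = 0.590). Neither the antisense gene nor these neighbours were called lower over both lines, but HTRA2 had log2 changes of -0.12 in line 1 and 0.22 in line 2. Whether reads in the shared bases affected the values of the members was not tested. LOC100507156, within LOXL2, had a mean under 1 FPKM and was not tested.

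Genes that act with the lysyl oxidases were counted by role. Of 63 genes in 7 lists, 47 were tested, of which 13 rose and 16 fell with the SUPT4H1 siRNA, and their median log2 change was 0.012, against 0.031 over all genes tested. The lists were chosen with earlier results of these data known, and their counts stand beside the 15.2% called lower and 26.8% called higher among all genes. Like the calls of the members, most list calls rest on the line as a block. Without it, 4 list genes were called lower, THBS1, ADAMTS2, TGFBR1 and TGFB1, and none higher, which left 0 of 6 substrate genes, 1 of 7 scaffold genes and 0 of 7 copper genes called.

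All 6 substrate genes tested fell, with a median log2 change of -0.24: ELN, COL5A1, COL3A1, COL5A2, COL4A2 and COL4A1. ELN, which encodes elastin, averaged 19.8 ± 1.43 FPKM in line 1 with the SUPT4H1 siRNA, against 32.6 ± 1.07 FPKM with the control siRNA. In line 2 it averaged 8.89 ± 0.184 FPKM with the SUPT4H1 siRNA, against 16.3 ± 0.126 FPKM with the control siRNA (SD, n = 2 each). Over both lines ELN fell by 0.75 on the log2 scale (limma, adjusted p = 2.49e-06). COL5A1, a chain of the collagen V that starts fibrils, fell by 0.44 (limma, adjusted p = 0.00229), and COL3A1, collagen III, by 0.25 (limma, adjusted p = 4.80e-04). The calls of COL4A1 and COL4A2 were each lost in 6 of the 8 fits that left out 1 sample and with a block of line and replicate number, which left 4 of the 6 called. COL1A1 and COL1A2, the chains of collagen I, were listed at 0 in all control samples with a status of too many fragments, as COL1A2 was in 1 SUPT4H1 sample of line 1, so no change is given for the most abundant substrate.

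Of 7 tested scaffold genes, 4 fell and 2 rose, with a median of -0.18. THBS1, the matricellular protein thrombospondin 1, averaged 818 ± 17.6 FPKM with the SUPT4H1 siRNA, against 1438 ± 23.3 FPKM with the control siRNA (SD, n = 4 each), and fell by 0.81 (limma, adjusted p = 5.67e-07). POSTN, the periostin that binds BMP1 and collagen, fell by 0.75 (limma, adjusted p = 5.30e-04) and FBN1, the fibrillin of microfibrils, by 0.57 (limma, adjusted p = 2.49e-06). LTBP4 was the other that fell. EFEMP2 and FBLN5, the fibulins that bring lysyl oxidases to elastin, rose by 0.083 and 0.076 in that order (limma, adjusted p = 0.0309 for EFEMP2 and 0.0174 for FBLN5), calls that were lost under median-ratio scaling (limma, adjusted p = 0.149 for EFEMP2 and 0.124 for FBLN5) and, of the 8 fits that left out 1 sample, in 5 for EFEMP2 and 1 for FBLN5. FN1, fibronectin, was listed at 0 with the same status in every sample but the 2 SUPT4H1 samples of line 1.

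Among the proteases and enhancers that process procollagens and lysyl oxidase precursors, 2 of 6 tested rose and 1 fell. PCOLCE, ADAMTS14 and FURIN were not called over both lines, and their responses differed between the lines. The log2 change of PCOLCE was 0.071 in line 1 and -0.50 in line 2, and that of ADAMTS14 was 0.27 and -0.17. For FURIN it was 0.0038 and 0.20. PCOLCE2, an enhancer of procollagen C-proteinase, averaged 34.1 ± 0.770 FPKM in line 1 with the SUPT4H1 siRNA, against 29.2 ± 0.508 FPKM with the control siRNA. In line 2 it averaged 17.1 ± 0.637 FPKM with the SUPT4H1 siRNA, against 10.1 ± 0.623 FPKM with the control siRNA (SD, n = 2 each). Over both lines PCOLCE2 rose by 0.47 (limma, adjusted p = 0.00284). ADAMTS2, the procollagen N-proteinase, fell by 0.27 (limma, adjusted p = 9.26e-05). BMP1, the protease that activates LOX, rose by 0.089 (limma, adjusted p = 0.0266), a call lost under median-ratio scaling (limma, adjusted p = 0.139) and without any of 5 single samples.

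The list for lysine hydroxylation and glycosylation of collagen also holds genes that do not modify lysines themselves, such as SERPINH1 and FKBP10. Of its 8 tested genes, 1 fell and 1 rose. PLOD2, the lysyl hydroxylase of collagen telopeptides, fell by 0.34 (limma, adjusted p = 3.15e-05) and COLGALT1, a collagen galactosyltransferase, rose by 0.20 (limma, adjusted p = 1.65e-04). Under median-ratio scaling 5 of the 8 were called lower and 1 higher. Of 7 tested genes of copper handling, the metal of the active site, 4 rose and none fell. SLC31A2, a copper transporter of internal membranes, rose by 0.39 (limma, adjusted p = 0.00877), ATOX1, the chaperone that hands copper to ATP7A, by 0.29 (limma, adjusted p = 6.68e-04) and CCS, the chaperone of superoxide dismutase, by 0.16 (limma, adjusted p = 0.0115). ATP7A, which pumps copper into the secretory pathway, rose by 0.11 (limma, adjusted p = 0.0358), a call lost under median-ratio scaling (limma, adjusted p = 0.0779), without the filter on low FPKM (limma, adjusted p = 0.0580), with a block of line and replicate number (limma, adjusted p = 0.0762) and in 6 of the 8 fits that left out 1 sample.

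Of 13 tested upstream factors, 4 rose and 4 fell. TGFB1, an inducer of lysyl oxidases, fell by 0.39 (limma, adjusted p = 1.70e-05), and its receptor genes moved in opposite directions, TGFBR1 falling by 0.55 (limma, adjusted p = 1.28e-04) and TGFBR2 rising by 0.24 (limma, adjusted p = 2.10e-04). HIF1A and EPAS1, subunits of the hypoxia-inducible factors, were the other genes of this list that fell, while IRF1, SMAD3 and ARNT rose, SMAD3 and ARNT with calls that were lost under median-ratio scaling and, of the 8 fits that left out 1 sample, in 5 for SMAD3 and all 8 for ARNT. The 5 other amine oxidase genes, AOC1, AOC2, AOC3, MAOA and MAOB, had means under 1 FPKM and were not tested.

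**Figure D5:**
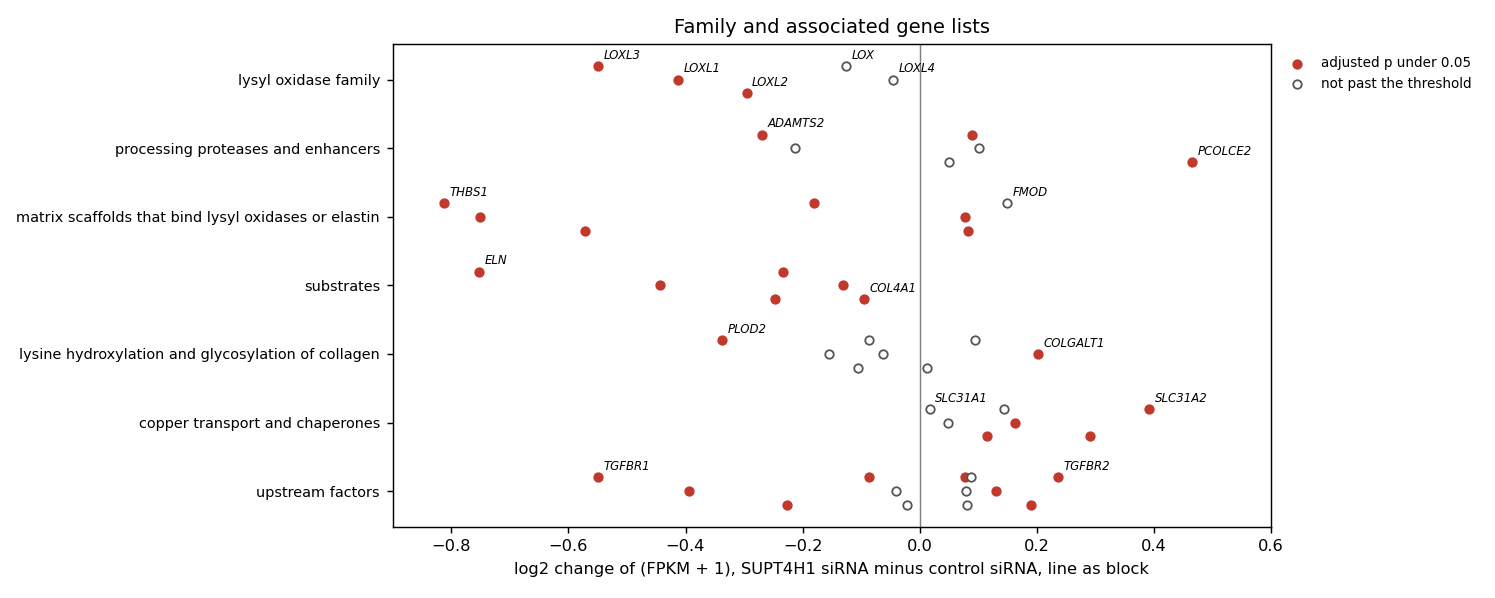
Log2 change over both lines, SUPT4H1 siRNA minus control siRNA, for the 5 members and the tested genes of 6 associated lists; filled points passed an adjusted p under 0.05 and open points did not. The 6 substrate genes all lie left of 0 and the 7 copper genes all lie right of it. The other lists have points on both sides. The median over all genes tested was 0.031, above the 0.017 of the copper gene SLC31A1. The share of all genes on each side of 0 is not given.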

How the data were processed

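The authors deposited 1 table of FPKM values per sample, in which each gene also has the bounds of an interval and a status, per the file headers; the build is hg19, per the submitters' processing notes, and for the aligner, the quantifying tool, the annotation and any use of strand the entry is "not given in the sources used here". FPKM is not a count, and depth is unknown, so no counting interval was computed; the deposited interval bounds were used as they stand. The files' 0-based start coordinates are given 1-based.

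Each table held 27032 entries. The 2185 entries of short RNAs were left out by name, since FPKM of RNAs shorter than a fragment cannot be compared with that of mRNAs, and entries of the same symbol were summed, which concerned 129 tested symbols and no lysyl oxidase. Genes with a mean of at least 1 FPKM were tested, except 12 left out because their status was not OK in every sample, which left 11442. Values were tested as log2(FPKM + 1), a scale that understates the changes of low genes, by limma 3.58.1 in R 4.3.3 with its trend of variance on mean; tests were 2-sided, and p-values were adjusted by Benjamini and Hochberg's method over all genes tested, with a threshold of 0.05. Over both lines the line was a block, 4 samples of each siRNA. Responses within a line, and their difference, came from a fit of 4 group means, 2 samples each, that shared 1 estimate of the spread. The series design groups the samples by siRNA alone, and that fit is the one without the block. Summaries were made in Python 3.11.15 with pandas 2.3.3 and numpy 2.4.6, and figures with matplotlib 3.10.9.

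Samples of the same line were paired by their line label, and their deviations from the siRNA means correlated at 0.883 to 0.9. With 2 lines, shared cells and anything else that goes with the line cannot be told apart. Replicate samples differed with an SD of the log2 ratio over genes of 0.088 to 0.094, siRNAs within a line of 0.194 to 0.234, and lines of 0.417 to 0.493, so no sample was taken as deposited more than once.

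The members and gene lists were chosen with earlier results of these data known. The text names the members, SUPT4H1, genes that overlap a member, the 3 genes most correlated with each member, the 3 called genes of largest change in each list and listed genes left out for status. Other listed genes are named where a count was small or their responses differed between the lines, after their values were seen. Alternatives were a pseudocount of 0.1, no filter or a mean of at least 5 FPKM, median-ratio scaling, no block, a block of line and replicate number, no trend, symbols with several entries left out, and each sample left out. Promoters came from RefSeq, whose table held 4 of the members; LOXL2 is named only. 1 gene of the marker lists is not reported here.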

Additional observations from a re-analysis of the deposited data

Results flagged for a closer look

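The responses of the lines to the SUPT4H1 siRNA differed, by a limma test of the difference with adjustment over all genes, for 2 of 5 members. They also differed for 19 of the other genes examined. The difference passed for 9.88% of all genes tested. The 19 pool list genes, HTRA2 and genes picked for their likeness to a member, so their number is not set against that share. All values are log2 differences, line 2 response minus line 1 response. For LOX the difference was 0.2459 and for LOXL2 -0.375.

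Of the 47 tested genes of the associated lists, 15 differed, against 9.88% of all genes. The response was higher in line 2 for 6: SLC31A2 at 0.5244, PCOLCE2 at 0.4984, SMAD3 at 0.2324, ATOX1 at 0.2009, PLOD1 at 0.1975 and FURIN at 0.1941. It was lower in line 2 for 9: POSTN at -0.5999, PCOLCE at -0.5665, FMOD at -0.5434, COL5A1 at -0.4625, ADAMTS14 at -0.4339, SERPINH1 at -0.3613, TGFBR1 at -0.3051, FKBP10 at -0.2454 and PLOD3 at -0.1416. Among these 9, the log2 changes of POSTN, COL5A1 and TGFBR1 were negative in both lines. Those of the others were positive in line 1 and negative in line 2, as for FMOD at 0.42 and -0.12. Among the 6, PLOD1 was negative in both lines and the others were positive in both. SLC31A2 stood at 167% of control in line 2 and 112% in line 1, PCOLCE2 at 170.4% and 117%, and POSTN at 48.1% and 73.1%. Of the 8 fits that left out 1 sample, the difference was lost in 8 for PLOD3, 7 for ATOX1, 7 for FURIN, 5 for SMAD3 and 3 for PLOD1, and in none for the other 10. The differences of ATOX1 and FURIN were also lost without the filter on low FPKM, and those of ATOX1, FURIN, PLOD1 and PLOD3 without the mean-variance trend.

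HTRA2, which overlaps LOXL3, had a difference of 0.342, with 6.60 and 7.05 FPKM under the SUPT4H1 siRNA, against 5.84 and 5.61 FPKM under the control siRNA, in line 2. In line 1 it had 7.28 and 6.89 FPKM under the SUPT4H1 siRNA, against 7.80 and 7.81 FPKM under the control siRNA. LOXL3 itself fell in both lines.

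Of the genes most similar to a member, PSG5 had a difference of 0.213, ITGA1 of 0.2295 and NDUFA4L2 of -0.8131. PSG5 and ITGA1 were picked for their correlation with LOX, and NDUFA4L2 with LOXL2, over the same 8 samples. A difference of the same sign as that of the member therefore follows in large part from the choice. The PSG5 difference was lost in 6 of the 8 fits that left out 1 sample, without the filter (limma, adjusted p = 0.104) and without the mean-variance trend (limma, adjusted p = 0.0800). The ITGA1 difference was lost in 2 of those 8 fits, and the NDUFA4L2 difference in none.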

How the results depend on the processing

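LOXL1, LOXL2 and LOXL3 kept their direction over both lines under every alternative run and their call under all but 1, the fit without the replicate block of line, where LOXL1 was at -0.41, LOXL2 at -0.30 and LOXL3 at -0.55 and neither they nor any other member passed (0 members lower, with 407 genes called higher and 204 lower). Blocking line and replicate number together changed no member's call; within a line, replicate numbers correlated at 0.052 to 0.103 and are taken as names only. Median-ratio scaling added LOX at -0.16 and LOXL4 at -0.081, making 5 members lower. Without the filter on FPKM, the LOX difference between lines (0.25) and the LOXL2 fall in line 1 (-0.11) no longer passed, leaving 0 members with a higher response in line 2, and the difference was called for 410 genes higher and 323 lower; without the mean-variance trend, LOXL2 in line 1 (-0.11) also failed. With a pseudocount of 0.1 the uncalled LOXL3 difference turned to 0.020. With a mean of at least 5 FPKM, 2789 genes were lower in line 2 than in line 1, fewer genes being tested. Leaving out 1 sample gave -0.17 to -0.092 for LOX over both lines, -0.043 to 0.037 for LOX in line 2, -0.14 to -0.074 for LOXL2 in line 1, -0.072 to 0.053 for the LOXL3 difference, -0.031 to 0.026 for the LOXL4 difference and -0.0035 to 0.096 for HTRA2 over both lines. The genes called higher in line 1 then numbered 1360 to 2207, fewest without control replicate 1 of line 1, and those with a difference of the responses 331 to 521 higher and 301 to 442 lower. Where a group was left with 1 sample, that sample was assumed to vary like the others. Except for fewer genes or samples, the cause of these shifts was not tested.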
